A study of Mus musculus with 6 samples.

Results

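The genes of the cytosolic ribosomal proteins were followed in mouse dendritic cells derived from bone marrow, with and without exposure to Ca(OH)2 nanoparticles. Members were taken by symbol alone: Rpsa, Rplp0, Rplp1, Rplp2, and every symbol made of Rpl or Rps, a number and at most 1 of the letters a, l, x and y. This gave 82 of the 23398 genes in the table, and the rule uses no measured value, although it was set with earlier results of these data known. By symbol, 32 belong to the small subunit, 47 to the large subunit and 3 to the P stalk. The annotation lists 79 of them as protein coding and 3 (Rps4l, Rpl6l and Rpl32l) as processed pseudogenes, although the rule was meant to leave pseudogenes out. Some true ribosomal proteins carry other symbols (such as Rps3a1 and Fau) and are described apart.

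The series holds 3 libraries from cells given vehicle (vehicle libraries 1 to 3) and 3 from cells given Ca(OH)2 nanoparticles (nanoparticle libraries 1 to 3), each after 12 hours. All cells were cultured in serum-containing DMEM with penicillin and streptomycin, and mouse strain and age are not given in the sources used here. Each library was built from 1 µg of total RNA of the whole culture. The labels do not say whether libraries of a group came from separate cultures or animals, so p-values measure the spread between these samples, which may be technical.

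Cytosolic ribosomal proteins are made in the cytoplasm, carried into the nucleolus and assembled there with ribosomal RNA into the small subunit, which decodes mRNA, and the large subunit, which joins amino acids. Cells need them in nearly equal amounts, and their mRNAs are among the most abundant of any cell. Most of these mRNAs begin with a cytosine followed by a run of pyrimidines (the 5′ terminal oligopyrimidine, or TOP, motif), through which the kinase complex mTORC1 and the RNA-binding protein LARP1 set how strongly they are translated. Dendritic cells change protein synthesis when they mature, and mRNA levels alone do not measure translation.

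Read totals recovered from the deposited values were 17282669 to 21977287 per library, of which 190732 to 673063 lay on the 82 genes. Nanoparticle library 1 stood apart from the other nanoparticle libraries in many genes, so group comparisons of the members are given with and without it. Dendritic cell markers were detected, with summed levels of 6115 to 6554 FPKM (a fragment count divided by transcript length and library scale) in vehicle libraries and 3377, 7062 and 7717 FPKM in nanoparticle libraries 1 to 3. Of 8 tested dendritic cell markers 4 were lower after treatment and none higher, and of 9 macrophage markers 2 were higher and 5 lower. Over all tested genes 17% were higher and 16.2% lower. Without nanoparticle library 1 the dendritic cell counts were 1 higher and 5 lower and the macrophage counts 3 higher and 6 lower. All 3 tested neutrophil markers were then higher. In that fit 34.3% of all tested genes were higher and 30.5% lower. With the remaining libraries also scaled to equal sums of FPKM, 8 dendritic cell markers were lower and none higher. Macrophage markers were then 2 higher and 7 lower, beside 12.9% higher and 62.2% lower over all tested genes. Macrophage markers summed to 836 to 983 FPKM in vehicle and 577 to 641 FPKM in nanoparticle libraries. Of 10 neutrophil markers 3 passed the filter on low values and 2 of these were higher, with sums of 35.4 to 39.5 FPKM against 55.9 to 128.4 FPKM, while Elane, Ly6g, Mpo and Retnlg were at 0 in at least 3 libraries. No T cell, B cell, erythroid or stromal marker passed that filter. The part of these markers in the results below was not tested, and in bulk RNA fewer cells of a type and less RNA per cell cannot be told apart.

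Nanoparticle and vehicle cells were compared to ask whether ribosomal protein mRNAs differ after treatment. In nanoparticle library 1 ribosomal protein mRNAs stood at a median of 48.0% of their vehicle level, whereas in nanoparticle libraries 2 and 3 most were above it, so that few differed between the groups as wholes. Of the 82 genes, 78 had at least 1 FPKM in at least 3 libraries and were tested. Only 2 passed an adjusted p of 0.05 in limma's moderated test across all genes, both higher, of which Rps4l is described below, and none was lower. Across all 10682 tested genes 33.2% passed, 17% higher and 16.2% lower. The same 2 genes were those with an unadjusted p under 0.05. The smallest adjusted p among the other 76 was 0.296.

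The median log2 change over the 78 genes, nanoparticle minus vehicle on the log2(FPKM + 1) scale, was -0.07, beside -0.001 over all tested genes. What set the genes apart was their spread. The median standard error of their log2 changes was 0.42, against 0.15 over all tested genes, which put it at percentile 95.8. Vehicle libraries, by contrast, were close to each other for these genes, with a median coefficient of variation of 3.26% against 5.73% over all tested genes. The spread therefore lay among the nanoparticle libraries.

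**Figure D1:**
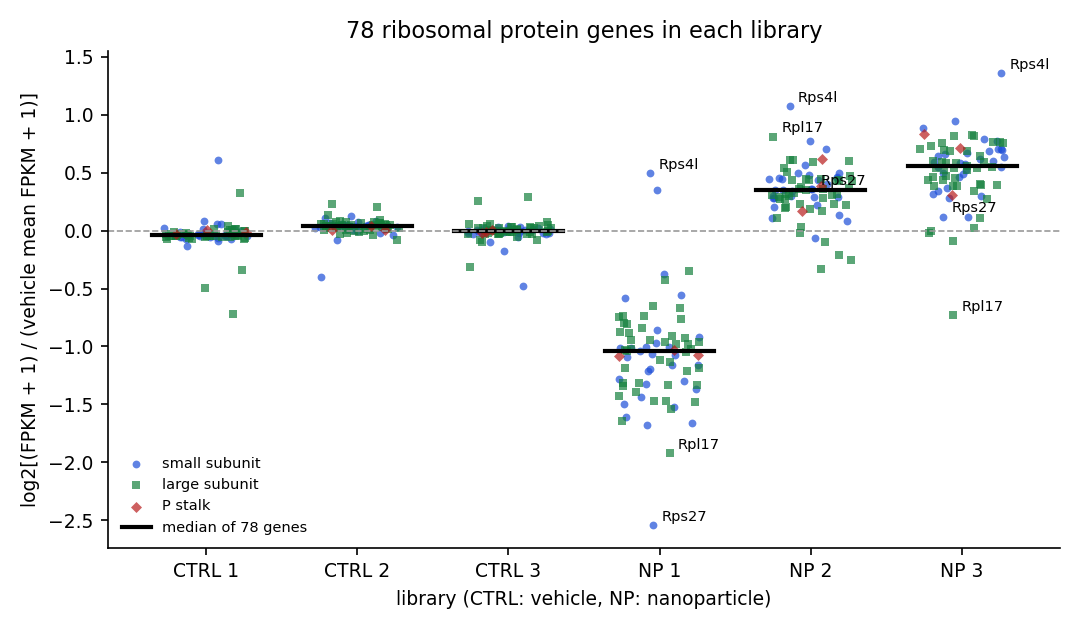
Each point is 1 of the 78 tested ribosomal protein genes in 1 library (horizontal axis), drawn as the log2 ratio of its FPKM to the vehicle mean after adding 1 (vertical axis), with colour and shape for the subunit and a bar for the median. The medians are -1.04 in nanoparticle library 1, 0.35 in library 2 and 0.56 in library 3, and Rps4l lies above 0 in all 3.

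In nanoparticle library 1, 51 of the 78 genes were under 50% of their vehicle mean. The median log2 ratio in that library was -1.04 for the 78 genes and -0.04 over all tested genes. Leaving out the 2 called genes, the percentages of the vehicle mean ran from 16.6% (Rps27) to 78.6% (Rpl19). In nanoparticle library 2 the median was 127.6% and in library 3 it was 147.5%. Below every vehicle library were 76 of the 78 genes in nanoparticle library 1 (46.7% of all tested genes), 3 in library 2 (42.8%) and 1 in library 3 (43.4%). Above every vehicle library were 2 in library 1 (42.8%), 69 in library 2 (45.3%) and 72 in library 3 (46.2%). The 2 called genes were above in all 3, as were 25.9% of all tested genes. Library 3 exceeded library 2 for 74 of the 78 genes, against 50.4% of all tested genes.

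Nanoparticle library 1 was the lowest of all 6 libraries for 76 of the 78 genes, which was the case for 32.5% of all tested genes. For 66 of the 78, or 84.6%, nanoparticle library 1 lay below every vehicle library while nanoparticle libraries 2 and 3 lay above every one; 10.8% of all tested genes had this pattern. The reverse pattern, found in 8.23% of all tested genes, occurred in none of the 78. Among the 12 genes without the pattern were Rps4l, which was high in all nanoparticle libraries, and Rpl3, Rpl4, Rpl7a, Rpl10a, Rpl13a, Rpl17, Rpl21, Rpl30, Rpl39l and Rps27a.

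With nanoparticle library 1 left out, 67 of the 78 genes passed the same test, all of them higher, with a median log2 change of 0.45. The background in that fit was 64.8% of all tested genes, 34.3% higher and 30.5% lower. How many were higher rested on how the libraries were scaled. When the libraries were put on equal read totals, 27 passed, 22 higher and 5 lower, beside 69.5% of all tested genes, 18.4% higher and 51.1% lower. On upper quartile scaling 40 were higher and 4 lower, beside 67.1% of all tested genes, 22.7% higher and 44.4% lower. On equal sums of FPKM the balance turned, with 4 higher and 26 lower, beside 75.1% of all tested genes, 12.9% higher and 62.2% lower. With all 6 libraries on equal FPKM sums 1 member was higher and 4 lower (all tested genes 48.6%, 8.25% higher and 40.3% lower), and on read totals 1 was higher (all tested genes 44.2%, 10.4% higher and 33.8% lower).

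The low values of nanoparticle library 1 did not rest on the scaling. It remained the lowest library for 76 genes under all 4 scalings, with medians of -1.04 as deposited, -1.35 on read totals, -1.34 on equal FPKM sums and -1.19 on upper quartiles. Over all tested genes these medians were -0.04, -0.29, -0.28 and -0.15. The medians of nanoparticle libraries 2 and 3 were 0.006 and 0.18 on read totals, beside -0.27 and -0.29 over all tested genes. On equal FPKM sums they were -0.16 and -0.04, beside -0.41 and -0.46. On upper quartiles they were 0.12 and 0.29, beside -0.17 and -0.20. The direction of the members against vehicle in libraries 2 and 3 is thus not fixed by these data. Under all 4 scalings their medians there lay above those over all tested genes.

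The subunits had like medians. The median log2 changes were -0.06 for 31 tested small subunit genes, -0.07 for 44 large subunit genes and 0.01 for 3 P stalk genes. In nanoparticle library 1 their medians against vehicle were -1.09, -1.02 and -1.07. In nanoparticle library 3 they were 0.59, 0.54 and 0.71.

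As a pool, the 82 genes held 4.61%, 4.89% and 4.79% of all FPKM in vehicle libraries 1 to 3. They held 1.86%, 4.28% and 4.66% in nanoparticle libraries 1 to 3. Only nanoparticle library 3 fell within the vehicle range, and library 1 was far under it. The group means were 4.76% ± 0.14 (SD, n = 3) for vehicle and 3.60% ± 1.52 (SD, n = 3) for nanoparticle, a difference smaller than the nanoparticle spread. The nanoparticle mean was 4.47% without nanoparticle library 1.

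As a share of reads, the same genes held 2.65%, 2.83% and 2.75% in vehicle and 1.07%, 2.74% and 3.06% in nanoparticle libraries. The 95% Wilson intervals reached at most 0.0078 percentage points to either side and cover counting error only. On this measure nanoparticle library 2 lay inside the vehicle range and library 3 above it.

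**Figure D2:**
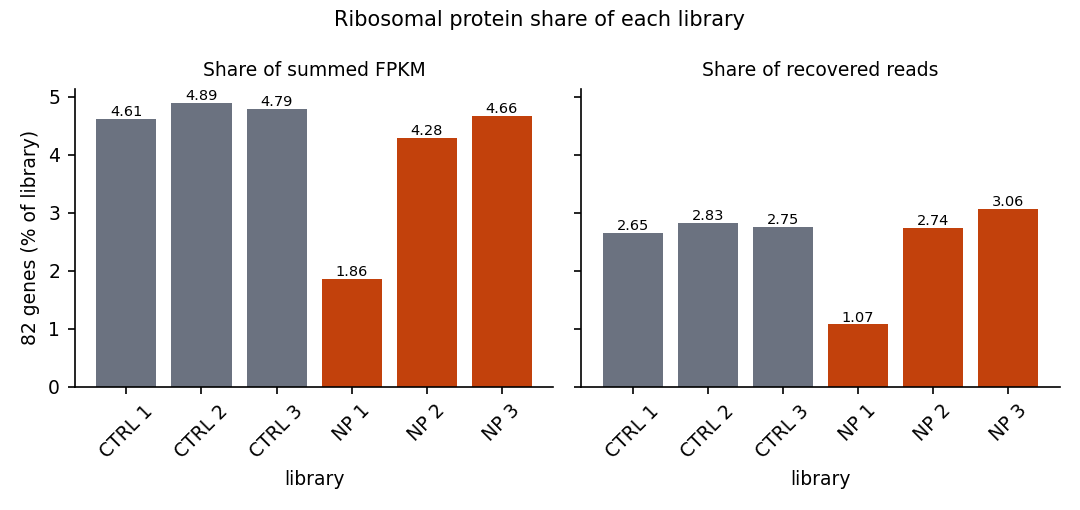
Bars give the summed level of the 82 ribosomal protein genes as a percentage of each library (vertical axis) for 3 vehicle (grey) and 3 nanoparticle libraries (orange), as FPKM on the left and as recovered reads on the right. Nanoparticle library 1, with 1.86% and 1.07%, is the lowest in both.

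The make-up of the pool differed less between libraries than its size. The ratio of small to large subunit FPKM, with the P stalk in the large subunit, was 0.582, 0.575 and 0.573 in vehicle libraries and 0.547, 0.567 and 0.571 in nanoparticle libraries. Every nanoparticle library was below every vehicle library, by little. The 4 most abundant members held 22.7% to 23.1% of the pool in vehicle and 24.0% to 25.2% in nanoparticle libraries.

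The most abundant member was Rplp1, which codes for an acidic P stalk protein of the large subunit that recruits elongation factors. On chromosome 9 it spans 61913284 to 61914542, on the minus strand. It measured 1708.5, 1711.6 and 1681.4 FPKM in vehicle and 808.2, 2227.9 and 2782.8 FPKM in nanoparticle libraries 1 to 3. Vehicle libraries were nearly alike, and nanoparticle libraries lay on both sides of them. The log2 change of Rplp1 was 0.009 (SE 0.46, limma adjusted p = 0.989). It was 0.55 without nanoparticle library 1 as deposited (limma adjusted p = 0.00259) and -0.006 on equal FPKM sums.

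Rplp0, the scaffold of the stalk, lies on chromosome 5 from 115559467 to 115563727. It measured 613, 643 and 619 FPKM in vehicle and 305, 704 and 773 FPKM in nanoparticle libraries. Rplp2, the partner of Rplp1, measured 161.5, 162.9 and 162.9 FPKM and then 76.2, 250.1 and 291.3 FPKM. All 3 stalk genes thus had nanoparticle library 1 below and libraries 2 and 3 above every vehicle library. The log2 change of Rplp0 was -0.18 (SE 0.36, limma adjusted p = 0.733). It was 0.24 without nanoparticle library 1 as deposited (limma adjusted p = 0.0121). Values of single genes without that library, here and below, are on the deposited scale unless another is named. On equal FPKM sums without it, 4 members were higher and 26 lower, beside 12.9% and 62.2% of all tested genes.

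Rpl41 codes for the smallest ribosomal protein and lies on chromosome 10 from 128548114 to 128549305. It measured 715, 779 and 767 FPKM in vehicle and 397, 1152 and 1331 FPKM in nanoparticle libraries. For Rpl41 the log2 change was 0.17 (SE 0.46, limma adjusted p = 0.807). It was 0.72 without nanoparticle library 1 as deposited (limma adjusted p = 0.000323). Rpl19, a large subunit protein on chromosome 11 from 98026710 to 98030492, measured 456, 482 and 433 FPKM and then 359, 695 and 776 FPKM. Of the 76 members that were low in nanoparticle library 1, Rpl19 was the least so. For Rpl19 it was 0.34 on the log2 scale (SE 0.30, limma adjusted p = 0.436). Leaving out nanoparticle library 1 gave 0.68 as deposited (limma adjusted p = 0.000288).

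**Figure D3:**
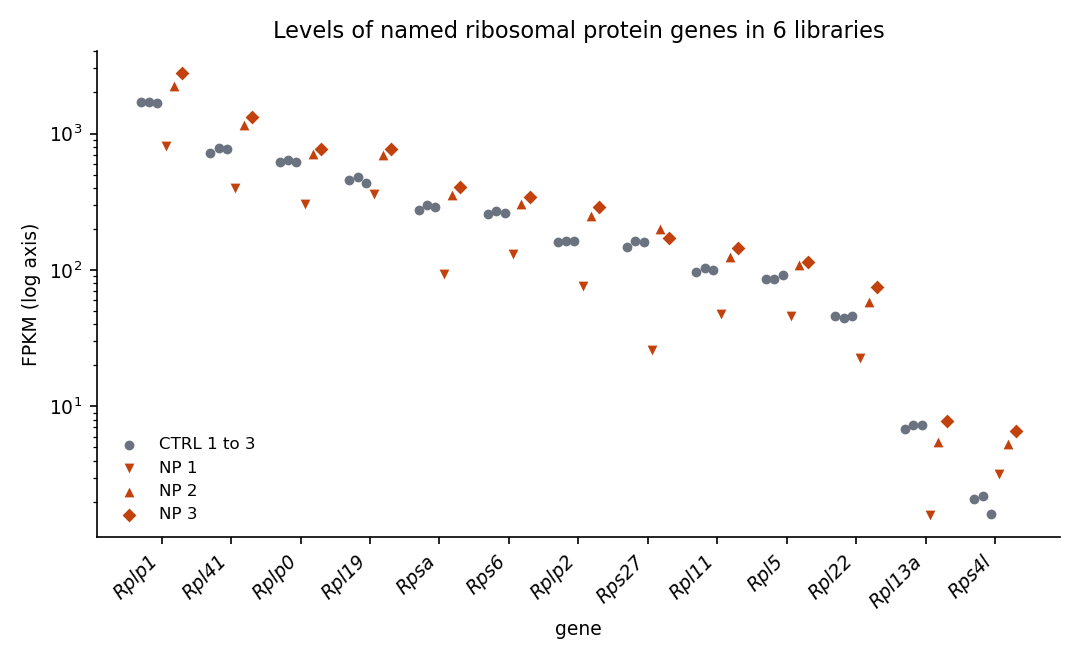
Points give the FPKM (vertical log axis) of 13 ribosomal protein genes (horizontal axis) in 3 vehicle libraries (grey) and nanoparticle libraries 1 to 3 (orange). For 12 genes the downward triangle of nanoparticle library 1 is the lowest point, while for Rps4l all nanoparticle points lie above the vehicle points.

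Rps4l lies on chromosome 6 from 148354656 to 148355598 and is annotated as a transcribed processed pseudogene, a reverse-transcribed copy of an Rps4 mRNA. It measured 2.08, 2.19 and 1.63 FPKM in vehicle and 3.18, 5.25 and 6.60 FPKM in nanoparticle libraries, from 32 to 41 and 49 to 120 reads. All nanoparticle libraries were above all vehicle libraries, at levels near the filter. Rps4l changed by 0.98 on the log2 scale (SE 0.23, limma adjusted p = 0.0186). It changed by 1.22 without nanoparticle library 1 (limma adjusted p = 0.000263). Its call held on all 3 other scalings, with adjusted p of 0.0232 to 0.0344, and was lost without any 1 vehicle library or nanoparticle library 2, with adjusted p of 0.0550 to 0.0758.

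Rps4x, the X-linked gene for the small subunit protein that Rps4l copies, behaved otherwise. It measured 264, 274 and 271 FPKM in vehicle and 120, 291 and 343 FPKM in nanoparticle libraries. Only nanoparticle library 1 was under the vehicle range. Of the 50-base windows of Rps4l, 14.9% occur in 1 other annotated gene.

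Other members with a paralog were read in the same way. Rps27l, a near copy of the small subunit protein Rps27 and a known p53 target, measured 150.3, 136.7 and 147.5 FPKM in vehicle and 96.4, 248.1 and 280.0 FPKM in nanoparticle libraries. It had the largest positive log2 change of any uncalled member, 0.38 (SE 0.40, limma adjusted p = 0.513). Leaving out nanoparticle library 1 moved it to 0.86 as deposited, past the threshold (limma adjusted p = 0.000111). Rpl39l, a paralog of the exit tunnel protein Rpl39 known from testis, measured 1.39, 2.49 and 2.19 FPKM and then 1.25, 2.25 and 3.56 FPKM. Its vehicle and nanoparticle values overlapped.

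Rpl39 itself measured 112.6, 113.9 and 113.6 FPKM in vehicle and 55.1, 140.3 and 165.3 FPKM in nanoparticle libraries. The processed pseudogene Rpl6l measured 38.1, 39.1 and 41.0 FPKM and then 24.8, 53.5 and 52.1 FPKM. Its parent Rpl6, a large subunit protein, measured 126.7, 134.2 and 131.5 FPKM and then 74.2, 154.0 and 165.8 FPKM. Parent and copy both had nanoparticle library 1 below and libraries 2 and 3 above every vehicle library, and 76.4% of the 50-base windows of Rpl6l occur in other genes.

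Rpl3, which helps form the peptidyl transferase centre, differed from most members in nanoparticle libraries 2 and 3. It measured 124.9, 129.6 and 132.7 FPKM in vehicle and 43.7, 111.2 and 126.9 FPKM in nanoparticle libraries. None of these exceeded the vehicle range. Rpl3 differed by -0.59 on the log2 scale (SE 0.39, limma adjusted p = 0.296), the smallest adjusted p among uncalled members. The value was -0.12 without nanoparticle library 1 (limma adjusted p = 0.175). Its striated muscle paralog Rpl3l had 9 to 34 reads in a library and was not tested. Rpl32 measured 340, 357 and 346 FPKM and then 137.5, 420 and 502 FPKM, while the pseudogene Rpl32l had 0 to 3 reads in a library.

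Rpsa codes for a small subunit protein that is also known as a laminin receptor at the cell surface. It measured 274, 301 and 291 FPKM in vehicle and 94.0, 356 and 407 FPKM in nanoparticle libraries. Nanoparticle library 1 was at 32.6% of the vehicle mean, lower than for most members. Between groups Rpsa differed by -0.27 on the log2 scale (SE 0.55, limma adjusted p = 0.743). The sign turned without nanoparticle library 1, to 0.40 as deposited (limma adjusted p = 0.0037).

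Of the members with known roles outside the ribosome, Rps6, Rpl5, Rpl11 and Rpl22 had the pattern of the majority. Rps6, the small subunit protein phosphorylated by the S6 kinases below mTORC1, measured 255, 271 and 262 FPKM in vehicle and 130.3, 303 and 340 FPKM in nanoparticle libraries. Rpl5 and Rpl11, which bind Mdm2 together with ribosomal RNA when ribosome assembly fails, had like values. Rpl5 measured 85.9, 85.3 and 91.1 FPKM and then 46.0, 108.9 and 114.6 FPKM, and Rpl11 measured 96.2, 103.8 and 100.4 FPKM and then 47.9, 124.7 and 144.3 FPKM. Rpl22, which has a role in lymphocyte development, measured 45.6, 44.3 and 46.2 FPKM and then 22.8, 58.6 and 74.4 FPKM. In each of these 4 genes nanoparticle library 1 was the lowest and library 3 the highest of all 6 libraries.

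Rpl13a, known for its part in silencing inflammatory mRNAs in interferon-treated myeloid cells, was listed at a low level. It measured 6.79, 7.28 and 7.27 FPKM in vehicle and 1.59, 5.46 and 7.76 FPKM in nanoparticle libraries. Only nanoparticle library 3 was above the vehicle range. Rpl13a differed by -0.62 on the log2 scale (SE 0.43, limma adjusted p = 0.315). The value was -0.11 without nanoparticle library 1 (limma adjusted p = 0.488). Of its 50-base coding windows 97.5% occur in other genes and 35.4% of its exons overlap another gene, so its level is uncertain.

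Nanoparticle library 1 lay farthest from libraries 2 and 3 in Rps27, Rpl37a and Rps21. Rps27, a zinc finger protein of the small subunit on chromosome 3 from 90212522 to 90213651, measured 147.2, 162.6 and 160.2 FPKM in vehicle and 26.0, 200.9 and 170.6 FPKM in nanoparticle libraries. Nanoparticle library 1 was at 16.6% of the vehicle mean and its log2 difference from the mean of the other nanoparticle libraries was -2.78. The log2 change between groups was -0.69 (SE 0.75, limma adjusted p = 0.527). The sign turned without nanoparticle library 1, to 0.24 as deposited (limma adjusted p = 0.0426).

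Rps27rt, an intronless protein-coding copy of Rps27 on chromosome 9 from 114982366 to 114982739, is outside the symbol rule. It had 815, 534 and 528 reads in vehicle libraries and 1650, 693 and 1909 reads in nanoparticle libraries. Its level was 109.4, 72.0 and 67.6 FPKM in vehicle and 270.2, 112.0 and 264.9 FPKM in nanoparticle libraries, with library 2 just above the highest vehicle library. Rps27 itself had 3059, 3361 and 3489 reads and then 443, 3468 and 3428 reads.

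Of the reads on either gene, Rps27 held 79.0%, 86.3% and 86.9% in vehicle libraries and 21.2%, 83.3% and 64.2% in nanoparticle libraries. Their sum, divided by the scale of each library, was 3600, 3638 and 3562 in vehicle and 2373, 4654 and 5126 in nanoparticle libraries. The sum in nanoparticle library 1 was low, but much less so than Rps27 alone. Every 50-base window of the Rps27 coding sequence occurs in another gene, so how reads were divided between the 2 genes is uncertain. Rps27rt passed the test, differing by 1.29 on the log2 scale (SE 0.39, limma adjusted p = 0.0443).

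**Figure D4:**
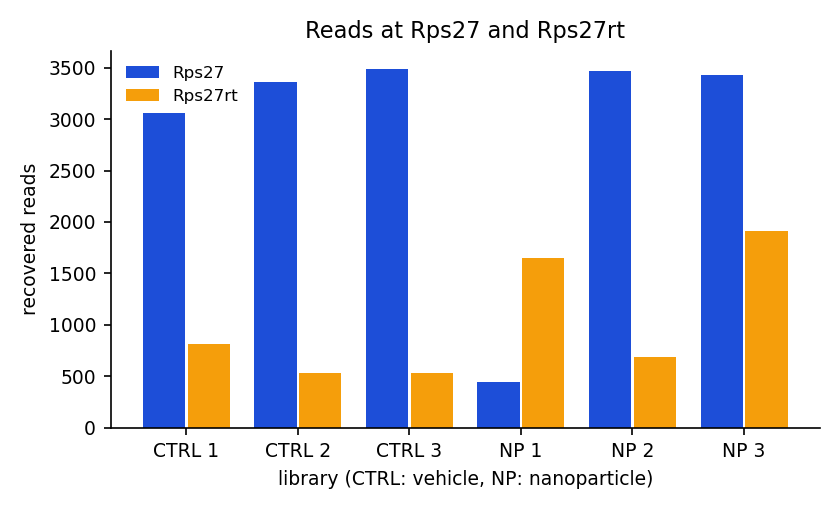
Bars give recovered reads (vertical axis) at Rps27 (blue) and Rps27rt (yellow) in each library (horizontal axis). Rps27 exceeds Rps27rt in 5 libraries, while nanoparticle library 1 has 443 reads at Rps27 and 1650 at Rps27rt.

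Rps21, a small subunit protein needed for the maturation of its ribosomal RNA, measured 199.7, 225.5 and 192.7 FPKM in vehicle and 72.2, 252.3 and 380.6 FPKM in nanoparticle libraries. Rpl37a, a zinc finger protein of the large subunit, measured 230.3, 244.9 and 230.8 FPKM and then 84.2, 319.6 and 415.2 FPKM. For both genes nanoparticle library 1 was the lowest of the 6 and its log2 differences from the other nanoparticle libraries were -2.09 and -2.10.

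Rpl17, a protein near the exit of the peptide tunnel that is named here after its values were seen, was uneven within both groups. It measured 67.4, 131.0 and 137.0 FPKM in vehicle and 28.8, 197.2 and 67.1 FPKM in nanoparticle libraries. Its log2 change was -0.54 (SE 0.69, limma adjusted p = 0.589). Here too the sign turned without nanoparticle library 1, to 0.11 (limma adjusted p = 0.855). In vehicle library 1 and nanoparticle library 3 the reads of its pseudogenes were the highest of their group. Rpl17 had 1041, 2013 and 2216 reads in vehicle and 365, 2529 and 1002 in nanoparticle libraries. Its 7 annotated pseudogenes together had 4462, 4260 and 3565 and then 2375, 4470 and 7040 reads. The sums were 5503, 6273 and 5781 and then 2740, 6999 and 8042 reads. The coefficient of variation over scaled vehicle libraries was 34.5% for Rpl17 and 7.95% for the sum, and nanoparticle library 1 had the lowest sum.

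Most members share sequence with other genes, which does not by itself show that their reads were divided. For each member the 50-base windows of its coding sequence were searched in all other annotated transcripts, and the median share found elsewhere was 88.7%. It was 100% in 27 members and under 25% in 8. Pseudogenes named after members held 0.048% to 0.125% of the reads in a library, beside 1.07% to 3.06% for the members. Rps10, with 30 to 42 reads in vehicle libraries and 11, 36 and 42 in nanoparticle libraries, was under the filter, while its 3 annotated pseudogenes had 1852 to 1951 and 894, 2267 and 2806 reads. Rpl24 had 3 to 20 reads in any library, and all of its windows occur in other genes. Both code for core proteins of the ribosome, and their listed levels are uncertain.

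Among vehicle libraries 72 of the 78 tested genes had a coefficient of variation under 10%, with a median of 3.26% against 5.73% over all tested genes. The exceptions chosen here after their values were seen include Rps27a, which codes for a ubiquitin fusion, with 142.7, 70.3 and 66.7 FPKM, and Rpl30, with 32.3, 50.5 and 54.9 FPKM. Their nanoparticle values were 28.4, 89.4 and 116.3 FPKM and 15.9, 38.4 and 43.1 FPKM. Adding the reads of named pseudogenes to their parents, which concerned 50 members and 153 pseudogenes, left 2 members past the threshold and a median log2 change of -0.06.

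The 7 tested members with under 25% of shared windows include Rps4l and Rpl41. Their median in nanoparticle library 1 was -0.84, and 3 of them had library 1 below and libraries 2 and 3 above all vehicle libraries. The 26 tested members with all windows shared had a median of -1.15, and 22 had that pattern. Across the 78 genes the share of shared windows and the gap between nanoparticle library 1 and the mean of the others had a Spearman correlation of -0.19, as a description over genes that share libraries.

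Coding length went with the gap to a small degree. Over the 76 members with an annotated coding sequence, Spearman's rho between coding length and that gap was 0.30, with longer genes less low in nanoparticle library 1. With gene length (merged exons) in place of coding length, rho was 0.19 over the 78 tested members and 0.42 over all 10682 tested genes. Ribosomal protein mRNAs are short, so this relation between length and library moves with the result; its part in the result was not tested.

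Many ribosomal protein genes carry small nucleolar RNA genes in their introns, which guide the modification of ribosomal RNA. Here 29 of the 82 members held 56 such genes. The 29 hosts had a median of -1.08 in nanoparticle library 1 and the 49 other tested members had -1.03. With nanoparticle library 1 left out, 22 of the 29 hosts and 45 of the 49 others were higher on the deposited scale, beside 34.3% of all tested genes. The difference between the sets was not tested. On equal FPKM sums without that library only 4 members were higher and 26 lower, beside 12.9% and 62.2% of all tested genes.

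Pyrimidine runs like that of the TOP motif were looked for around the starts that RefSeq annotates on GRCm38.p6, for which 60 of the 82 members had an entry. A run of at least 5 pyrimidines that opens with C lay over the start in 21 of the 60, or 35.0%, and in 9.92% of the 7946 tested genes with an entry. Such a run could open before the start, so the base at the start need not be a C, as in Rpl39 and Rpl27a below. The count is thus of runs that cover the annotated start, not of the TOP motif as defined above. The windows below hold 15 bases before the start and 15 from it, 5′ to 3′ on the gene's strand, with the run in capitals. They are those of members named above, shown to compare starts with and without the run, and of Rpl27a, which has one of the longest runs.
Rps6 (chr4:86857353-86857382, minus strand): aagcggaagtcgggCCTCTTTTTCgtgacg
Rps27 (chr3:90213634-90213663, minus strand): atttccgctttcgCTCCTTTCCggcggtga
Rplp2 (chr7:141447636-141447665, plus strand): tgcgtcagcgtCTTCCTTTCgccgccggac
Rps21 (chr2:180257364-180257393, plus strand): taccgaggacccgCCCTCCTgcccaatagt
Rpl39 (chrX:37085208-37085237, minus strand): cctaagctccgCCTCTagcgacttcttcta
Rpl27a (chr7:109519180-109519209, plus strand): gacttcgtgagCTCCTCCCTTTTCCCTTTC
Rpl13a (chr7:45128731-45128760, minus strand): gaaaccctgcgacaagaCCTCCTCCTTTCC
Rplp0 (chr5:115559452-115559481, plus strand): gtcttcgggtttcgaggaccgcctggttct
Rpl41 (chr10:128549154-128549183, minus strand): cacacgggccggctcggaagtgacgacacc
Rpl5 (chr5:107900513-107900542, plus strand): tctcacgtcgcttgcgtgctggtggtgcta
Rpl11 (chr4:136053379-136053408, minus strand): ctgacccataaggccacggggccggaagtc
Rpsa (chr9:120127751-120127780, plus strand): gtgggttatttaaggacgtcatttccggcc

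In Rpl13a the run begins after the annotated start, and in the last 5 windows no run was found. A window without the run says only that these letters do not lie at the annotated start. The 19 tested members with a run over the start had medians of -1.07, 0.37 and 0.60 in nanoparticle libraries 1 to 3, and the 37 with an entry and no such run had -1.02, 0.34 and 0.55. The values with and without the run were thus close, and no test was made of them.

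In the promoter, from 250 bases before the start to 50 after it, the letters CCGGAAG of the ETS factors were found on either strand in 41.7% of the 60 members and 21.9% of tested genes. GGGCGG, bound by SP1, was found in 58.3% and 69.7%, AAGATGGC, bound by YY1, in 8.33% and 5.85%, and the E-box CACGTG in 10.0% and 12.4%. TATAAA was found in 11.7% and 8.37%. The rank of Rps27 in nanoparticle library 1 is uncertain, as is the division of its reads with Rps27rt, and Rpl19 has a further annotated start that is not shown. The 250 bases before the start are given for Rps27, by its listed value the lowest member in nanoparticle library 1, and Rpl19, the least low, with matches in capitals.
Rps27 (chr3:90213649-90213898, minus strand): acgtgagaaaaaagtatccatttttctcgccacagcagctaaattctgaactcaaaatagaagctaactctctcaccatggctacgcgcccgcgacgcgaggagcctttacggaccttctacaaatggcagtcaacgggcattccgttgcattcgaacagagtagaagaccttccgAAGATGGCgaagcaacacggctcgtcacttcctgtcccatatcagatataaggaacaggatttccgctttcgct
Rpl19 (chr11:98026460-98026709, plus strand): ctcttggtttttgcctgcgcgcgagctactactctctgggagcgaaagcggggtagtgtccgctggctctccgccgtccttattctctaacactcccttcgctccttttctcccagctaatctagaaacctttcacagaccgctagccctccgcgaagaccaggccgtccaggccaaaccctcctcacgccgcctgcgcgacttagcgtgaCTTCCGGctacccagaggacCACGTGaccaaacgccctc
Rps27 holds a YY1 match, and Rpl19 an ETS match on the minus strand and an E-box. These matches are letters only, and no binding was measured.

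The other genes of the pathway were read from lists described in the account of the processing. Their counts stand against those over all tested genes, of which 33.2% were called as deposited (17% higher, 16.2% lower) and 48.6% on equal FPKM sums (8.25% higher, 40.3% lower). The same shares without nanoparticle library 1 were 64.8% (34.3% higher, 30.5% lower) and 75.1% (12.9% higher, 62.2% lower). In 10.8% of all tested genes nanoparticle library 1 lay below and libraries 2 and 3 above every vehicle library.

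Of 6 ribosomal proteins outside the symbol rule, 3 had nanoparticle library 1 below and libraries 2 and 3 above every vehicle library, Rps3a1 and Fau among them. Rps3a1 measured 463, 488 and 495 FPKM in vehicle and 245, 604 and 667 FPKM in nanoparticle libraries. Fau, a ubiquitin-like fusion that yields the small subunit protein eS30, measured 376, 404 and 404 FPKM and then 256, 611 and 698 FPKM. Rps27rt alone was higher, with no call on the other scalings, and none was lower, except that 2 were lower on equal FPKM sums. Leaving out nanoparticle library 1 gave 3 higher and none lower as deposited, and 1 higher and 3 lower on equal FPKM sums.

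Of 19 tested elongation factors and other mRNAs with a TOP motif, 1 was higher and 1 lower. In 10 of them, or 52.6%, nanoparticle library 1 lay below and libraries 2 and 3 above every vehicle library, beside 10.8% of all tested genes. Eif4b, an initiation cofactor, measured 42.0, 45.5 and 44.7 FPKM in vehicle and 27.5, 32.3 and 30.8 FPKM in nanoparticle libraries, and its log2 change was -0.53 (SE 0.11, limma adjusted p = 0.0106). All nanoparticle libraries were below all vehicle libraries. The RNA helicase Eif4a2 rose by 0.40 on the log2 scale (SE 0.09, limma adjusted p = 0.0158), but its change was -0.06 on equal FPKM sums, where 8 of the list were lower and none higher. Without nanoparticle library 1, 11 of the list were higher and 2 lower, but 1 higher and 15 lower on equal FPKM sums.

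Of 26 initiation factors 5 were higher and 2 lower, or 26.9% called, under the 33.2% of all tested genes, and 1 higher and 8 lower on equal FPKM sums. Without nanoparticle library 1, 19 were higher and 4 lower, but 3 higher and 13 lower on equal FPKM sums. Eif4e, the cap-binding protein, measured 12.2, 13.0 and 11.8 FPKM in vehicle and 24.4, 20.99 and 22.3 FPKM in nanoparticle libraries. Its log2 change was 0.82 (SE 0.10, limma adjusted p = 0.00172), and nanoparticle library 1 was the highest. Eif6, which keeps the large subunit from joining too early, measured 29.2, 28.4 and 26.9 FPKM and then 57.6, 86.3 and 93.7 FPKM, and its log2 change was 1.43 (SE 0.19, limma adjusted p = 0.00242). Eif2s3x, a subunit of the factor that brings the initiator tRNA, fell by 0.51 on the log2 scale (SE 0.10, limma adjusted p = 0.00925).

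Ribosome biogenesis factors were mostly lower where they were called. Of 53 tested, 20 were lower and 1 higher, and between 27 and 38 were lower and 1 higher on the other scalings. Called were 39.6%, beside 33.2% of all tested genes. Leaving out nanoparticle library 1 gave 27 lower and 13 higher as deposited, 38 lower and 3 higher on read totals, and 43 lower and 2 higher on equal FPKM sums. Heatr1, needed for transcription and processing of pre-ribosomal RNA, measured 11.5, 11.3 and 12.2 FPKM in vehicle and 4.76, 4.68 and 4.32 FPKM in nanoparticle libraries. Its log2 change was -1.18 (SE 0.09, limma adjusted p = 0.000312). Utp20, of the small subunit processome, changed by -0.86 (SE 0.08, limma adjusted p = 0.000737). The gene that rose was Sbds, which helps release Eif6 from the large subunit, at 23.5, 23.5 and 22.2 FPKM and then 76.5, 72.6 and 69.3 FPKM. Its log2 change was 1.62 (SE 0.10, limma adjusted p = 0.000136), with no difference in direction between nanoparticle libraries.

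Chaperones of ribosomal proteins and ubiquitin ligases that act on ribosomes numbered 14, of which 5 were higher and none lower, or 35.7% called, close to the 33.2% of all tested genes, but 6 were lower and none higher on equal FPKM sums. Without nanoparticle library 1, 7 were higher and 4 lower, but 1 higher and 8 lower on equal FPKM sums. The ligases Rnf14 and Rnf25, which act at stalled ribosomes, changed by 0.90 (SE 0.12, limma adjusted p = 0.00215) and 0.58 (SE 0.15, limma adjusted p = 0.0265). Zfp598, which marks collided ribosomes, changed by 0.56 (SE 0.15, limma adjusted p = 0.0286).

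Among 28 regulators in the mTORC1, LARP1 and MYC list 4 were higher and 5 lower, or 32.1% called, close to the 33.2% of all tested genes, and 12 were lower and none higher on equal FPKM sums. As deposited, 8 were higher and 14 lower without nanoparticle library 1, against 2 higher and 16 lower on read totals and 1 higher and 21 lower on equal FPKM sums. Sesn1, an inhibitor of mTORC1 signalling, measured 6.28, 5.51 and 4.46 FPKM in vehicle and 1.15, 1.43 and 1.43 FPKM in nanoparticle libraries, and its log2 change was -1.45 (SE 0.13, limma adjusted p = 0.000613). Eif4ebp2, a repressor of Eif4e, changed by -1.33 (SE 0.13, limma adjusted p = 0.000691) and Sesn2 by -0.89 (SE 0.09, limma adjusted p = 0.000799). Myc, a transcription factor that raises ribosome production and is named here after its values were seen, measured 16.8, 16.0 and 15.3 FPKM and then 2.16, 4.69 and 5.58 FPKM. These 4 regulators were below every vehicle library in all nanoparticle libraries, whereas most ribosomal protein genes were so, as deposited, in library 1 alone. The 4 that were higher as deposited went the other way. They were Eif4ebp1 (0.55, limma adjusted p = 0.0111), Mxd1 (1.33, limma adjusted p = 0.0166), Larp1 (0.40, limma adjusted p = 0.0316) and Max (0.43, limma adjusted p = 0.0343).

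Mitochondrial ribosomal proteins build the separate ribosome of that organelle. Of 77 tested, 10 were higher and none lower, or 13.0% called, under the 33.2% of all tested genes, but 4 were higher and 14 lower on equal FPKM sums. Without nanoparticle library 1, 55 were higher and 2 lower, but 14 higher and 27 lower on equal FPKM sums. For 35 of them, or 45.5%, nanoparticle library 1 was below and libraries 2 and 3 above every vehicle library, beside 10.8% of all tested genes. Mrpl1 changed by 0.65 (SE 0.08, limma adjusted p = 0.00203), Mrpl45 by 1.01 (SE 0.13, limma adjusted p = 0.00206) and Mrpl14 by 0.91 (SE 0.14, limma adjusted p = 0.00415). None of the cell cycle genes had that pattern of library 1 against libraries 2 and 3, itself found in only 10.8% of all tested genes. Of 25 tested, 22 were lower and none higher, with Top2a, Aurka and Aurkb at log2 changes of -2.79 (SE 0.11), -1.78 (SE 0.09) and -2.08 (SE 0.11), and 24 were lower on each of the other scalings and without nanoparticle library 1.

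**Figure D5:**
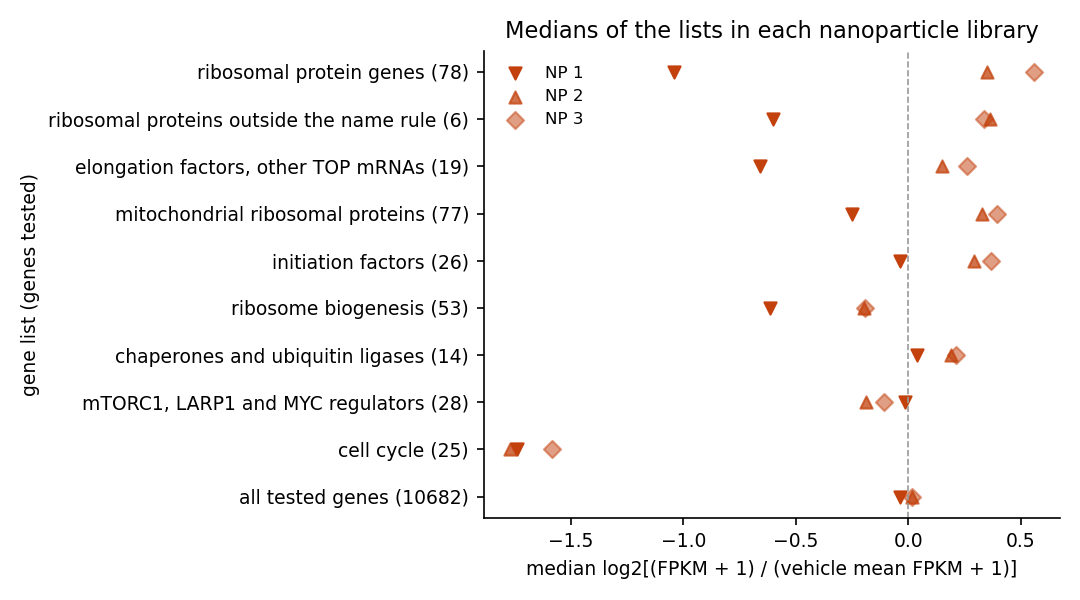
Points give the median log2 ratio to the vehicle mean (horizontal axis) of each gene list (vertical axis, genes tested in brackets) in nanoparticle libraries 1 to 3. For ribosomal protein genes library 1 lies at -1.04 and libraries 2 and 3 at 0.35 and 0.56, while for cell cycle genes all 3 lie between -1.77 and -1.59.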

How the data were processed

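Per the labels' protocols, total RNA of bone-marrow-derived dendritic cells was made into NEBNext Ultra II libraries. The submitters' processing notes list CASAVA, STAR 2.5, HTSeq, edgeR 3.16.5 and DESeq2, and the builds mm10 and hg19, without their roles. The authors deposited 2 tables with the same 140388 values. No header names the unit, and the values were read as FPKM deposited by the authors, because 95.7% to 96.0% of them became whole reads (within 0.01) when multiplied by the merged exon length in GENCODE M21 and 1 scale per library. Strand and the handling of reads shared between gene copies are not given in the sources used here, which makes near-identical genes uncertain. The scale between libraries is the authors' and was replaced by others in alternatives.

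From these values log2(FPKM + 1) was computed for the 10682 genes that reached 1 FPKM in 3 or more libraries, and nanoparticle was compared with vehicle with limma 3.58.1 in R 4.3.3 (lmFit, and eBayes with a mean-variance trend), with Benjamini-Hochberg adjustment over all tested genes and a threshold of 0.05. The fit was also run on simulated data in which every library had the spread of the vehicle libraries. That run does not cover a case where 1 nanoparticle library diverges from the others, as here. Positions are those of GENCODE M21 on GRCm38, matched for 23388 gene IDs. Python 3.11.15 with pandas 2.3.3 was used for the rest.

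The members and lists were chosen with earlier results of these data known. The lists were ribosomal proteins outside the symbol rule, elongation factors and other TOP mRNAs, initiation factors, ribosome biogenesis, chaperones and ubiquitin ligases of ribosomal proteins, mTORC1, LARP1 and MYC regulators, mitochondrial ribosomal proteins, cell cycle, and markers of dendritic cells, macrophages, neutrophils, mast cells and basophils, T cells, B cells, erythroid and stromal cells. Of mast cell and basophil markers 3 were tested and 1 was lower. Named members were the 6 largest changes past the threshold in each direction, the 4 highest, paralogs ending in l with their parents, the P stalk genes and Rpsa, Rps6, Rpl5, Rpl11, Rpl13a and Rpl22, and the 3 members in which nanoparticle library 1 lay farthest from the others; in other lists, up to 3 genes with the smallest adjusted p. One member that the rule names is not reported here.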

Additional observations from a re-analysis of the deposited data

How the results depend on the processing

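The 2 called ribosomal protein genes stayed 2 with a pseudocount of 0.1, without a filter, without the mean-variance trend, in limma-voom on recovered reads and with pseudogene reads added. With a filter of 5 FPKM, upper quartile scaling or read totals 1 was called, higher, beside 38.6%, 37.8% and 44.2% of all genes in those fits. On equal FPKM sums 5 were called, 1 higher and 4 lower, with a median log2 change of -0.53. There 117 list genes were called in place of 77, beside 48.6% of all tested genes in place of 33.2%. Leaving out 1 library each gave 0 to 67 calls, 0 to 67 of them higher, medians of -0.37 to 0.45 and 47 to 193 list genes called, with the highest numbers of calls without nanoparticle library 1; without vehicle library 1, 2 or 3 or nanoparticle library 2 no member was called, and without nanoparticle library 3 it was 1. With nanoparticle replicate 1 left out as well, read totals gave 27 calls (22 higher, 5 lower) and 154 list genes, beside 69.5% of all tested genes. Equal FPKM sums gave 30 (4 higher, 26 lower) and 177, beside 75.1%. Upper quartiles gave 44 (40 higher, 4 lower) and 161, beside 67.1%. These settings and the pseudogene setting were chosen after seeing the data. The mean vehicle share was 2.74% when taken over reads.

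Log2 changes that turned sign were Rplp1 (-0.46), Rpl41 (-0.30), Rpl19 (-0.13), Rps27l (-0.0889) and Eif4a2 (-0.0553) on equal FPKM sums; Rplp1 (-0.34), Rpl41 (-0.17) and Rpl19 (-0.0038) on read totals; Rplp1 (-0.20) and Rpl41 (-0.043) on upper quartiles; Rplp1 in limma-voom (-0.0081); and Rpl17 with pseudogene reads (0.10). Without nanoparticle replicate 1 as well, Eif4a2 (-0.13), Rnf25 (-0.036), Zfp598 (-0.0244) and Rplp1 (-0.006) turned on equal FPKM sums, and Rpsa on read totals (0.0401) and upper quartiles (0.15). Leaving out 1 library each gave -0.34 to 0.55 for Rplp1, -0.16 to 0.72 for Rpl41, -0.43 to 0.24 for Rplp0, -1.21 to 0.24 for Rps27, -0.65 to 0.40 for Rpsa and -1.26 to 0.11 for Rpl17. The cause was not tested.

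With the replicate number as a block, 1 member was called, higher, and 2785 genes in place of 3550; deviations of same-numbered libraries correlated at 0.07, 0.11 and -0.06, so the numbers were not taken to pair the samples. The planned edgeR test on recovered reads was not run. Low read numbers limit Rpl3l, Rpl32l, Rpl39l and Rps4l. Rps10 and Rpl24 had few reads too, with most or all of their coding windows found in other genes. Shared sequence also occurs in most other members.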
